A study of Mus musculus with 12 samples.

Results

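The genes followed here are 10 immediate early genes in mouse kidney: Fos, Fosb, Fosl1, Jun, Junb, Egr1, Ier2, Ier3, Nr4a1 and Dusp1. They were taken by name and NCBI Gene number, not by a measured value, as 10 of the 27179 genes in the table. The data were RNA sequencing of whole kidneys from 12 mice of mixed strain background, 8 to 12 weeks old, with 3 mice in each of 4 groups. Wild-type mice and mice of the genotype γGT1-Cre;Fan1-/-, called FAN1KO, received either saline or cisplatin. The Cre of the FAN1KO mice is driven by the promoter of γ-glutamyl transferase, which is active in proximal tubule cells, so the other cells of these kidneys can still hold an intact Fan1 gene, which encodes a nuclease of DNA crosslink repair. Cisplatin, a drug that crosslinks DNA and injures the proximal tubule, was injected into the abdomen once a week at 2 mg/kg for 5 weeks, and control mice were given saline. The comparisons ask how the 10 genes differed between genotypes under each treatment, between treatments within each genotype, and among mice of the same group.

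Immediate early genes are transcribed within minutes of a stimulus without the need for new protein, since the factors that switch them on are already present and are activated by MAP kinases. Fos and Jun proteins pair through leucine zippers to form AP-1, a transcription factor that binds short palindromic sites and controls genes of growth, stress and repair. Their messenger RNAs are short-lived, so a level in tissue largely reflects transcription close to the moment of sampling. In kidney they are known to respond to ischemic, toxic and obstructive injury of the tubule.

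Depth was not limiting for most of the 10 genes. Levels are TPM (transcripts per 1000000), and reads assigned to genes, worked out from the smallest increments of these values, numbered 37201916 to 82947186 a library, so that 1 read in a gene of 1 kilobase was worth 0.02 to 0.0479 TPM. Fan1 overlapped between the genotypes, at 1.17 to 2.28 TPM in FAN1KO and 1.98 to 3.80 TPM in wild-type kidneys under saline and at 1.55 to 3.51 and 2.33 to 3.57 TPM under cisplatin, so its RNA in whole kidney does not check the labels. A library in each group (replicate 3 of wild-type saline and of FAN1KO cisplatin, replicate 1 of FAN1KO saline and of wild-type cisplatin) carried RNA of 4 Y-linked genes at a mean log2(TPM + 1) of 3.46 to 3.93, against at most 0.10 in the other 8. The 7 adrenal marker genes summed to 116 TPM in wild-type saline 2 and to 1.21 to 3.06 TPM elsewhere. Markers of proximal tubule, thick ascending limb, distal nephron and podocyte were present in every library, as the label kidney implies.

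Under cisplatin, most of the 10 genes were higher in FAN1KO than in wild-type kidneys. By limma, with p-values adjusted over 14972 genes, 6 of the 9 members tested rose and 0 fell. These were Fos, Fosl1, Jun, Junb, Egr1 and Ier2. The background was high: 19.6% of all genes tested were called higher and 4.37% lower. Without FAN1KO cisplatin 1, FAN1KO cisplatin 2 or wild-type cisplatin 1 the share called higher was 7.81%, 10.3% and 9.63%, and 4, 5 and 6 members were called; the genes called lower then numbered 370, 402 and 453, in place of 654. All 3 FAN1KO values lay above all 3 wild-type values for 8 of the 10 members, against 35.7% of all genes tested. Fosb is among the 8 but not among the genes tested. The median difference of the 9 members was 1.39 on the log2(TPM + 1) scale, against 0.24 over all genes tested. Of the 10 members, 9 passed the filter on low values, which asked for 3 or more libraries with a TPM of 1 or higher. Fosb did not, and Fosl1 passed only through the 3 FAN1KO cisplatin libraries, so Fosl1 had to differ in order to be tested at all. Its call among the 6 is therefore no support, and the members' median of 1.39 is the value of Fosl1 itself. With libraries scaled by median ratios, which moved the median of all genes from 0.24 to -0.02, the members' median was 1.19 and the same number of members, 6, was called higher. That scaling moved the share of higher calls among all genes from 81.8% to 53.0%.

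**Figure D1:**
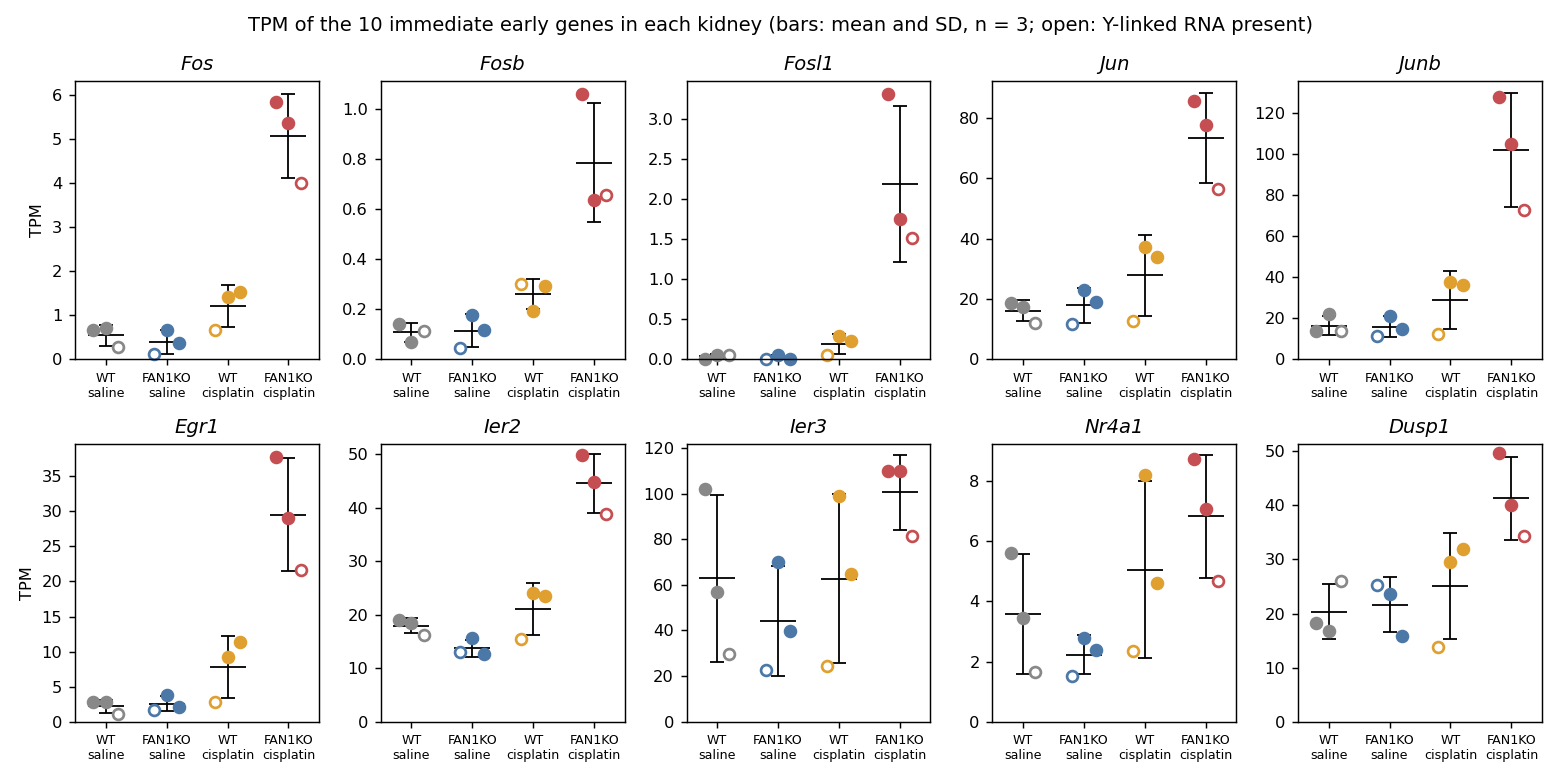
TPM of each of the 10 genes (one panel each, linear axis from 0) in each of the 12 kidneys. Points are libraries, bars the mean and SD of 3 mice, and open points the library of each group with Y-linked RNA. Fos, Fosb, Fosl1, Jun, Junb, Egr1, Ier2 and, by a small gap, Dusp1 stand higher in the 3 FAN1KO cisplatin kidneys than in the other 9. Ier3 and Nr4a1 in these kidneys overlap with both wild-type groups but not with FAN1KO saline kidneys.

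The groups also differed in their cell type markers under cisplatin. The 8 proximal tubule markers summed to 1890 to 3790 TPM in FAN1KO and 4920 to 6490 TPM in wild-type cisplatin kidneys, and 6 of the 8 fell. Of these, Slc34a1, Lrp2 and Slc22a8 were called whichever single library was left out, while the count was 3 or 4 in 8 of the 12 such fits, all but those without wild-type saline 3, FAN1KO saline 1, FAN1KO saline 2 or FAN1KO cisplatin 3. The 6 markers of distal convoluted tubule and collecting duct summed to 1370 to 1790 against 681 to 1340 TPM. Pvalb, a calcium-binding protein of the distal convoluted tubule, was called lower (-4.63, adjusted p = 0.00119), and Aqp2, the water channel of the collecting duct, higher (1.39, adjusted p = 0.0455). The call of Aqp2 was lost under median-ratio scaling (adjusted p = 0.0757) and in all fits without single libraries (adjusted p up to 0.163) but those without FAN1KO saline 1, FAN1KO saline 2 or wild-type cisplatin 2. The 5 macrophage markers summed to 110 to 304 against 42.9 to 113 TPM and overlapped. Of these genes, Cd68 stood at the threshold (adjusted p = 0.0499), and its call was lost under median-ratio scaling (adjusted p = 0.0575) and in all fits without single libraries (adjusted p up to 0.199) but those without wild-type saline 3, FAN1KO saline 1 or FAN1KO cisplatin 3. The 8 tubule injury genes, among them Lcn2 and Krt20, summed to 9160 to 15600 against 792 to 2810 TPM. The 4 neutrophil markers summed to 6.82 to 10.5 against 1.41 to 5.41 TPM, with Ly6g listed at 0 in 1 of the 3 FAN1KO cisplatin libraries. Of these 4 markers, 2 were tested and 0 were called. In wild-type saline kidneys they summed to 6.5 to 9.1 TPM. The 3 markers of the thick ascending limb (1440 to 1760 against 1010 to 2430 TPM), the 4 podocyte markers (29.8 to 178 against 55.2 to 151 TPM), the 4 fibroblast markers (73.0 to 134 against 45.0 to 149 TPM), the 5 lymphocyte markers (1.41 to 12.5 against 1.95 to 5.52 TPM) and the 4 endothelial markers (18.2 to 64.1 against 35.0 to 149 TPM) overlapped between the genotypes. The 4 red cell genes summed to 6.56 to 73.3 against 2320 to 6570 TPM, and mitochondrially encoded messages took 9.52% to 15.9% of the TPM against 17.4% to 20.6%. Their part in the differences of the 10 genes was not tested. In whole tissue, fewer cells of a type and less RNA per cell cannot be told apart.

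The Fos proteins lack the ability to pair with themselves and bind DNA only with a Jun partner. Fos, the founding member, was at 4.01 to 5.85 TPM in FAN1KO cisplatin kidneys (5.85, 5.36 and 4.01). It was at 0.650, 1.41 and 1.53 TPM in wild-type cisplatin kidneys. The genotypes did not overlap, and wild-type cisplatin 1 was within the range of the saline kidneys. The means were 5.07 ± 0.952 and 1.20 ± 0.477 TPM (SD, n = 3), with a ratio of 4.24, and the difference was 1.48 ± 0.23 (SE) on the log2(TPM + 1) scale (adjusted p = 0.00231). Under saline, Fos was at 0.657, 0.708 and 0.267 TPM in wild-type and 0.115, 0.660 and 0.363 TPM in FAN1KO kidneys, or 7 to 44 reads a library.

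Fosl1 encodes Fra-1, a Fos protein without the activation domain of Fos that is itself an AP-1 target in many cells. It was the rarest member under saline, with 0, 2 and 4 reads in wild-type and 0, 2 and 0 reads in FAN1KO kidneys. Wild-type cisplatin kidneys had 3, 11 and 8 reads, or 0.0520, 0.292 and 0.225 TPM. FAN1KO cisplatin kidneys had 118, 67 and 57 reads, or 3.31, 1.75 and 1.51 TPM, which do not overlap with any other group. The ratio of the means under cisplatin was 11.5 (2.19 ± 0.977 against 0.190 ± 0.124 TPM), and the difference on the log2(TPM + 1) scale was 1.39 ± 0.20 (adjusted p = 0.00168). This scale compresses the change of a gene at such low levels. By voom on the recovered reads the difference was 3.71 ± 0.70 (adjusted p = 0.00546). Fosl1 was tested only through the libraries where it was high, so neither adjusted p is support for a difference. The Fosl1 locus (chromosome 19, 5447698 to 5455938, GRCm38.p6) overlaps Ccdc85b, and how reads of the overlap were counted is not given in the sources used here.

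Fosb, a Fos protein best known from neurons, stayed below 1.1 TPM everywhere and was not tested. Its values were 1.06, 0.637 and 0.657 TPM in FAN1KO cisplatin kidneys and 0.298, 0.192 and 0.291 TPM in wild-type cisplatin kidneys. The saline libraries of both genotypes spanned 0.0453 to 0.177 TPM. The 3 FAN1KO cisplatin values lay above the other 9, with 54 to 84 reads each, and the exact permutation test of 3 against 3 gave p = 0.1, the smallest it allows.

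The Jun proteins can pair with each other as well as with Fos proteins, and were the more abundant AP-1 members in every group. Jun, the partner of Fos and a substrate of the JNK kinases, was at 85.8, 77.7 and 56.6 TPM in FAN1KO cisplatin kidneys. In wild-type cisplatin kidneys it was at 12.5, 37.1 and 33.8 TPM. The first of these 3 wild-type values lay within the range of the saline kidneys, 11.5 to 23.0 TPM, and the other 2 above it. The genotypes differed under cisplatin by 1.49 ± 0.38 (adjusted p = 0.020). The call was lost without FAN1KO cisplatin 1 (adjusted p = 0.0831), without FAN1KO cisplatin 2 (adjusted p = 0.0653) and when only the 6 cisplatin libraries were fitted (adjusted p = 0.0542).

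Junb, a Jun protein that activates transcription less than Jun and can restrain it, reached the highest levels of the AP-1 members. FAN1KO cisplatin kidneys had 128, 105 and 72.6 TPM and wild-type cisplatin kidneys had 12.3, 37.7 and 36.3 TPM. As with Jun, wild-type cisplatin 1 stood at the level of the saline kidneys, which spanned 11.3 to 21.8 TPM. The means under cisplatin were 102 ± 27.6 and 28.8 ± 14.3 TPM, a ratio of 3.53, and the difference was 1.90 ± 0.40 (adjusted p = 0.00891).

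Of the 7 members with a promoter entry in the RefSeq table (GRCm38.p6), 5 carried TGACG, the core of the site for CREB and ATF factors, on either strand in the 250 bases before the start. These were Fos, Fosb, Junb, Nr4a1 and Dusp1, and 17.8% of 32851 promoters held it. Jun carried TGACNTCA, the form bound by Jun and ATF2 pairs, and Dusp1 carried it as TGACGTCA, which contains TGACG on both strands. TGACNTCA was present in 7.49% and TGACGTCA in 1.55% of promoters. For either motif, 6 of the 7 members held a match, against 23.0% of all promoters. The AP-1 site TGANTCA had no match within these 250 bases in the 7 (6.75% of all promoters), nor did the CArG box of serum response factor (1.47%). Bases further upstream were not searched, so sites there would be missed. Fosl1, Egr1 and Ier2 had no entry. A match describes the letters only, and none of these sites was measured. The 150 bases before the start are shown for 3 members, Fos, Jun and Junb, of which all were higher under cisplatin in FAN1KO kidneys, and for 2 that did not pass the test there, Nr4a1 and Dusp1. They run 5′ to 3′ on the strand of the gene, with capitals marking TGACG, its complement CGTCA, or TGACNTCA.
Fos, chr12:85473740-85473889, plus strand: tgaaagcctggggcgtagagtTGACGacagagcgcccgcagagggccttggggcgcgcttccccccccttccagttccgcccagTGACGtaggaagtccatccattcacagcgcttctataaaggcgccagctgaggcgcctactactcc
Jun, chr4:95052223-95052372, minus strand: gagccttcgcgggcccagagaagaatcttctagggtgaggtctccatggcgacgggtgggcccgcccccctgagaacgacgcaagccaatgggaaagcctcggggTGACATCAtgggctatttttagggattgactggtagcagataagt
Junb, chr8:84978749-84978898, minus strand: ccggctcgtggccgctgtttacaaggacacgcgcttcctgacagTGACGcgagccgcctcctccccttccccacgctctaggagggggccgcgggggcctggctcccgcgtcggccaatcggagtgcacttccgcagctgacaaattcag
Nr4a1, chr15:101266696-101266845, plus strand: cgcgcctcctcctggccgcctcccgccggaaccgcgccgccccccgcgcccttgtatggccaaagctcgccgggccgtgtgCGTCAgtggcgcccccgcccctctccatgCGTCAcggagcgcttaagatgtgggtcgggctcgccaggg
Dusp1, chr17:26508473-26508622, minus strand: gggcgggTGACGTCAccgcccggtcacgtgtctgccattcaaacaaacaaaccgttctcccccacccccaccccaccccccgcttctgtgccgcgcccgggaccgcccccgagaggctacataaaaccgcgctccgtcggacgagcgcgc
The matches began at -129 and -66 in Fos, at -45 in Jun and at -106 in Junb, counted in bases from the start. In Nr4a1 those shown began at -69 and -40, and in Dusp1 the longer site began at -143. The start used for Nr4a1 lies within its locus (chromosome 15, 101253902 to 101274795) and not at the first base. Matches therefore stood in members that rose and in members that did not pass the test.

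Egr1, a zinc finger factor induced by growth factors through serum response factor and Elk1, did not overlap between the genotypes under cisplatin. FAN1KO cisplatin kidneys had 37.8, 29.1 and 21.7 TPM and wild-type cisplatin kidneys 2.84, 9.26 and 11.4 TPM. The saline kidneys spanned 1.14 to 3.77 TPM, so wild-type cisplatin 1 again fell within their range. The genotypes differed under cisplatin by 1.92 ± 0.43 (adjusted p = 0.0107), and the adjusted p was 0.0523 without FAN1KO cisplatin 1.

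Nr4a1 encodes Nur77, an orphan nuclear receptor. It was at 8.74, 7.05 and 4.66 TPM in FAN1KO and 2.35, 8.19 and 4.60 TPM in wild-type cisplatin kidneys, which overlapped. The difference was 0.45 ± 0.41 (adjusted p = 0.442).

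Ier2, a nuclear immediate early protein of which little is known, was the least variable of the abundant members. Its TPM was 49.9, 44.9 and 38.9 in FAN1KO and 15.4, 24.1 and 23.5 in wild-type cisplatin kidneys, and the difference was 1.07 ± 0.17 (adjusted p = 0.00254). Ier3, a target of NF-κB and p53 that affects cell survival, was the most abundant member under saline. Its cisplatin values of 110, 110 and 81.4 TPM in FAN1KO and 24.6, 98.7 and 64.8 TPM in wild-type kidneys overlapped, with a difference of 0.86 ± 0.56 (adjusted p = 0.284).

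Dusp1 encodes MKP-1, a phosphatase that switches MAP kinases off again. It was at 49.6, 40.0 and 34.4 TPM in FAN1KO and 13.9, 29.5 and 31.9 TPM in wild-type cisplatin kidneys. The groups did not overlap, but the gap between the lowest FAN1KO and the highest wild-type kidney was small, and the difference of 0.77 ± 0.30 did not pass the test (adjusted p = 0.0912).

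**Figure D2:**
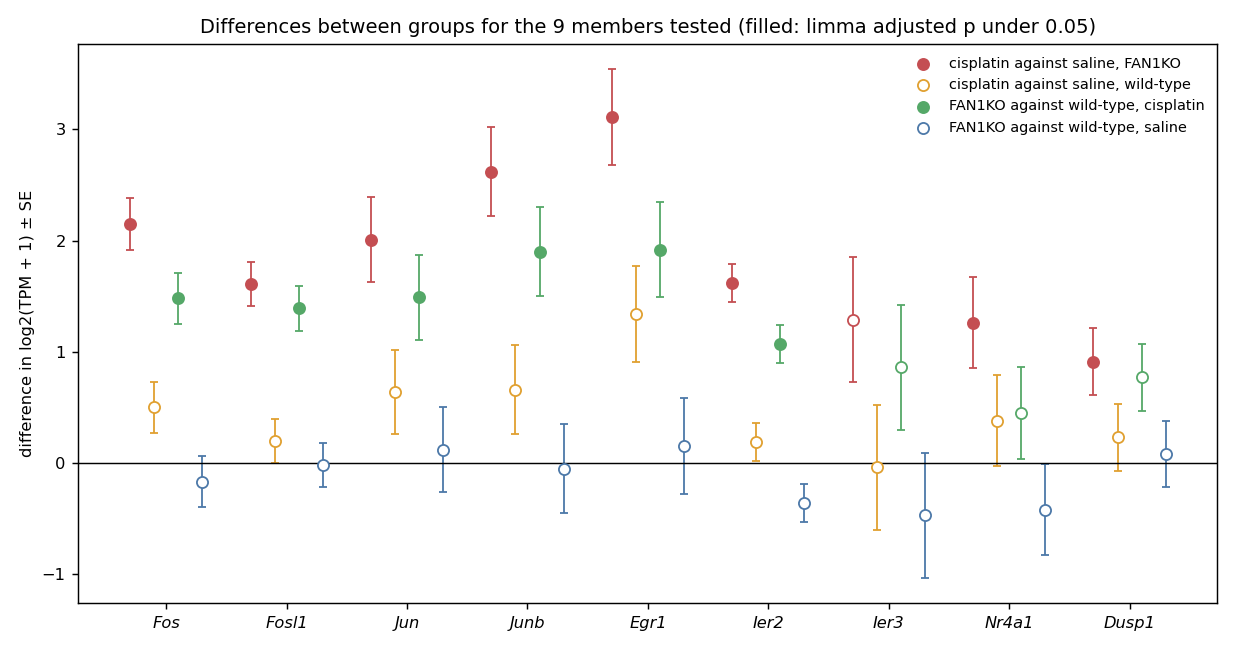
Differences in log2(TPM + 1) between groups with their SE for the 9 members tested in the 4 comparisons; filled points passed the limma test (adjusted p under 0.05). The cisplatin against saline differences in FAN1KO kidneys run from 0.91 (Dusp1) to 3.11 (Egr1), those in wild-type kidneys from -0.04 (Ier3) to 1.34 (Egr1), and no point of the saline comparison between genotypes is filled.

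In FAN1KO kidneys, cisplatin against saline gave the most calls among the members. Of the 9 tested, 8 rose, against 34.9% of all genes tested, and 0 fell (4.90%). All 3 cisplatin values lay above all 3 saline values for 10 of the 10 members (47.4% of all genes tested, which leave out Fosb). The members' median difference was 1.62, against 0.37 over all genes. Egr1 rose from 2.55 ± 1.08 to 29.5 ± 8.04 TPM, by 3.11 ± 0.43 on the log2(TPM + 1) scale (adjusted p = 0.000578). Junb rose from 15.8 ± 5.04 to 102 ± 27.6 TPM (2.62 ± 0.40, adjusted p = 0.00102), Fos from 0.379 ± 0.273 to 5.07 ± 0.952 TPM (2.15 ± 0.23, adjusted p = 0.000198) and Jun from 17.8 ± 5.84 to 73.4 ± 15.0 TPM (2.01 ± 0.38, adjusted p = 0.00284). Ier2 rose by 1.62 ± 0.17 (adjusted p = 0.000183). Fosl1 was called higher (1.61 ± 0.20, adjusted p = 0.000409), but it was tested only through these cisplatin libraries and its 3 saline libraries held 2 reads in all, so this difference depends on the pseudocount and no fold is given. Without FAN1KO cisplatin 1, the genes called higher numbered 3140 in place of 5229, the genes called lower 482 in place of 733, and 6 members were called. This comparison shares the FAN1KO cisplatin libraries with the comparison of genotypes under cisplatin.

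The calls of 3 members depended on single libraries in that comparison. Nr4a1 (1.26 ± 0.41, adjusted p = 0.0313) lost its call under median-ratio scaling (0.0569) and without FAN1KO saline 1 (0.104), FAN1KO saline 3 (0.0610), FAN1KO cisplatin 1 (0.116) or FAN1KO cisplatin 2 (0.0830). Dusp1 (0.91 ± 0.30, adjusted p = 0.0354) lost its call under median-ratio scaling, where its difference was 0.46 (adjusted p = 0.285), without a filter on low values (0.0507), in the fit with a replicate block (0.0595), and without FAN1KO saline 2 (0.0514), FAN1KO saline 3 (0.118), FAN1KO cisplatin 1 (0.129) or FAN1KO cisplatin 2 (0.0793). Ier3 (1.29 ± 0.56, adjusted p = 0.0889) gained one without FAN1KO saline 2 (0.0482), without wild-type cisplatin 1 (0.0465), and when only the 6 FAN1KO libraries were fitted (0.0376), with the Y-linked covariate (0.00426) and with the 8 libraries with little Y-linked RNA (0.0398). The numbers in parentheses after each setting are adjusted p from limma.

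In wild-type kidneys, 0 of the 9 members passed the test for cisplatin against saline. All that limma called among all genes were 9 higher (0.0601%) and 0 lower. The genes called higher numbered 41 without wild-type cisplatin 1, 2 without FAN1KO cisplatin 2, and 0 without wild-type saline 1, 2 or 3 or wild-type cisplatin 2 or 3, and 0 members were called in each of these fits. At an unadjusted p under 0.05 there was 1 member, Egr1, and voom on the recovered reads called 0 members, with 2 at an unadjusted p under 0.05. The 3 cisplatin values lay above the 3 saline values for 3 members, Egr1, Fosl1 and Fosb, against 5.20% of all genes tested, which leave out Fosb. For Fosl1 the lowest cisplatin value was 0.0520 TPM and the highest saline value 0.0496 TPM. The members' median difference was 0.38, against 0.08 over all genes. Without wild-type cisplatin 1 it was 0.69, against 0.18, and 6 members had an unadjusted p under 0.05 by limma. Without wild-type cisplatin 2 or 3 it was 0.14 and 0.38, against 0.04 and 0.05, and 1 member did in each fit.

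The wild-type cisplatin mice did not form a tight group. Egr1 was at 9.26 and 11.4 TPM in replicates 2 and 3, above the saline maximum of 2.77 TPM in wild-type kidneys, and at 2.84 TPM in replicate 1. Jun, Junb, Ier2, Ier3, Nr4a1 and Dusp1 in replicate 1 were all below their wild-type saline means (for Jun 12.5 against 16.0 ± 3.54 TPM, for Dusp1 13.9 against 20.4 ± 4.99 TPM). Of the 10 members, 9 had their lowest wild-type cisplatin value in replicate 1, the library of its group with Y-linked RNA. Among only the 8 libraries with little Y-linked RNA, 2 a group, 2 members were called higher in wild-type kidneys. They were Jun (0.94 ± 0.12, adjusted p = 0.0319) and Egr1 (1.58 ± 0.22, adjusted p = 0.0437), where 0.401% of all genes were called higher. With the Y-linked level as a covariate Egr1 alone was called (adjusted p = 0.0423).

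Under saline, 0 of the 9 members differed between FAN1KO and wild-type kidneys by limma, 0 at an unadjusted p under 0.05, and 0 by voom on either count. Among all genes 0.341% were called higher and 0.427% lower, or 51 and 64 genes. In both directions, 45, 43 and 67 genes were called without wild-type saline 1, 2 or 3, 75 and 63 without FAN1KO saline 1 or 2, and 73 without FAN1KO cisplatin 2. Differences ran from -0.47 ± 0.56 (Ier3) to 0.15 ± 0.43 (Egr1), with adjusted p from 0.636 to 1.00. Ier2 alone did not overlap, at 13.0, 15.6 and 12.7 TPM in FAN1KO and 19.0, 18.5 and 16.3 TPM in wild-type kidneys (-0.36 ± 0.17, adjusted p = 0.636), and 7.83% of all genes lay below in this way.

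The interaction term tests whether cisplatin changed a gene by a different amount in FAN1KO than in wild-type kidneys. It was positive for 9 of the 9 members and passed the test for 3, Ier2 (1.43 ± 0.24, adjusted p = 0.0136), Fos (1.65 ± 0.33, adjusted p = 0.0216) and Fosl1 (1.41 ± 0.29, adjusted p = 0.0240). Fosl1 passed the filter only through the group where it was high, so its call gives no support, and its size depends on the pseudocount (4.43 by voom, adjusted p = 0.0822). Of all genes, 5.22% were called with a positive and 1.02% with a negative interaction, or 782 and 153 genes. In both directions they numbered 277 and 351 without wild-type saline 1 or 2, 407 and 405 without FAN1KO saline 1 or 3, 436 and 533 without wild-type cisplatin 1 or 2, and 269 and 307 without FAN1KO cisplatin 1 or 2. Junb (1.95 ± 0.57, adjusted p = 0.0671), Egr1 (1.77 ± 0.60, adjusted p = 0.102) and Jun (1.37 ± 0.54, adjusted p = 0.147) had differences of like size with larger errors and did not pass. Without wild-type saline 1 or without wild-type saline 2, the number called was 1, since Fos (adjusted p = 0.0593 and 0.0573) and Fosl1 (0.0582 and 0.0595) were lost. Fos was also lost without FAN1KO cisplatin 1 (0.0617) or 2 (0.0577), and Fosl1 without FAN1KO saline 1 (0.0543) or 3 (0.0545) or wild-type cisplatin 1 (0.0528). With a pseudocount of 0.1 Fos was lost too, at a difference of 2.58 (adjusted p = 0.0685), so its size also depends on the pseudocount. With a replicate block Fosl1 was lost (adjusted p = 0.0533). With voom 1 member, Ier2, was called (adjusted p = 0.0148). With the Y-linked covariate 7 members were called (27.3% of all genes), and with the 8 libraries alone 6 were (13.4% of all genes).

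Within groups, the members varied more than most genes. The residual SD of log2(TPM + 1) over the 4 groups had a median of 0.53 among the 9 members tested and of 0.25 among all genes tested, and 7 of the 9 lay above the latter. Ier3 was the most variable (0.78, percentile 95.5 of all genes tested), with a range of 24.6 to 98.7 TPM among wild-type cisplatin kidneys. Egr1 (0.58, percentile 88.8), Junb (0.56, percentile 87.6), Nr4a1 (0.55, percentile 87.1) and Jun (0.53, percentile 85.8) followed. Dusp1 had 0.42 (percentile 76.5), Fos 0.28 (percentile 56.6), Fosl1 0.22 (percentile 43.4) and Ier2 0.22 (percentile 41.1). At low levels, adding 1 to the TPM shrinks the spread on this scale: Fos, with a low SD, in FAN1KO saline kidneys had a highest value 5.76 times its lowest.

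The library with Y-linked RNA was the lowest of its group for 6 of the 10 members in wild-type saline, 7 in FAN1KO saline, 9 in wild-type cisplatin and 9 in FAN1KO cisplatin kidneys. The same library was lowest for 68.2%, 69.3%, 69.5% and 65.4% of all genes tested, which leave out Fosb. The 5 members Fos, Jun, Egr1, Ier3 and Nr4a1, were lowest in that library in all 4 groups, as were 41.5% of all genes tested. Dusp1 went the other way under saline, where it was highest in that library in both genotypes (26.1 and 25.3 TPM). For Fos, Egr1, Junb and Jun, every FAN1KO value lay above every wild-type value under cisplatin. Ratios above 1 on both sides of this division were therefore fixed in advance, and only their sizes are described. Between the pair of libraries with Y-linked RNA the ratio of FAN1KO to wild-type was 6.17 for Fos, 7.65 for Egr1, 5.91 for Junb and 4.54 for Jun. Between the means of the other libraries it was 3.81, 3.24, 3.13 and 2.31. The former rest on 1 library a group and have no test. Fitted on the 8 libraries with little Y-linked RNA, 6 members were called higher in FAN1KO than in wild-type cisplatin kidneys (28.9% of all genes). Nr4a1, Ier3 and Dusp1 were not called (adjusted p = 0.419, 0.339 and 0.0641). Their ratios between the means of these libraries were 1.23, 1.34 and 1.46.

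**Figure D3:**
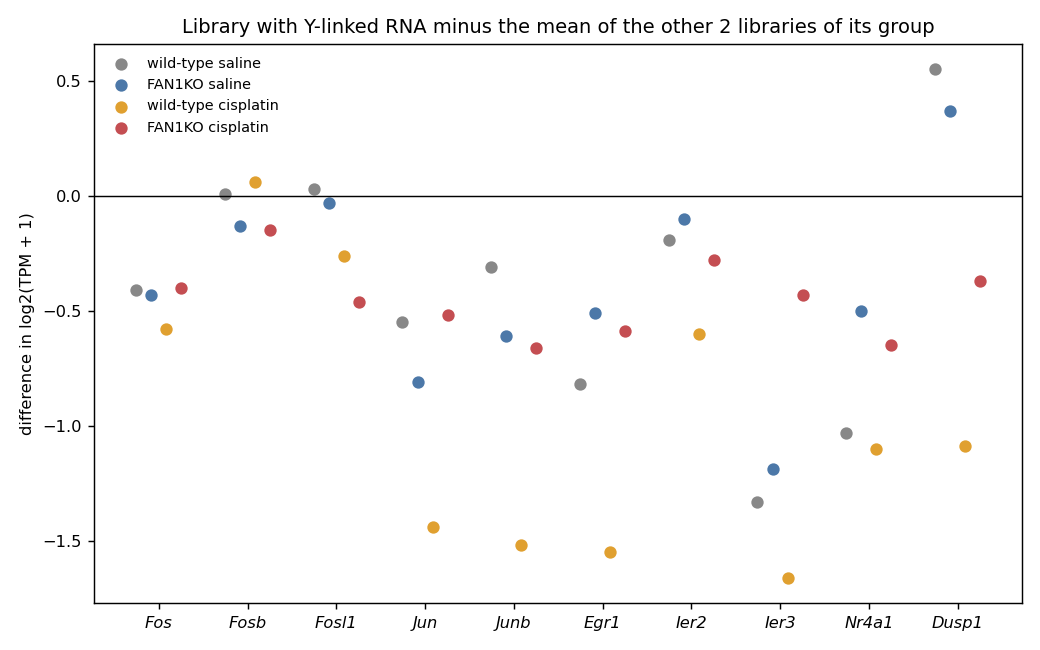
For each of the 10 genes, the log2(TPM + 1) of the library with Y-linked RNA minus the mean of the other 2 libraries of its group, 1 point a group. Most points lie below 0, the largest gaps are those of Ier3, Egr1, Junb and Jun in wild-type cisplatin kidneys (-1.66, -1.55, -1.52 and -1.44), and Dusp1 is above 0 in both saline groups.

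The members also moved together within groups. Across the 12 libraries, the deviation of a member from its group mean correlated with the mean deviation of the other members at a Pearson r of 0.98 for Ier2, 0.96 for Egr1, 0.95 for Jun, 0.92 for Fos and 0.91 for Junb. It was 0.83 for Ier3 and for Nr4a1, 0.58 for Fosl1 and 0.54 for Dusp1. The points share libraries, and with them depth and the division by Y-linked RNA, so these values describe the libraries only. The mean standardized deviation of the members was lowest in wild-type cisplatin 1 (-1.81) and highest in wild-type cisplatin 2 (1.03). The 10 other genes whose deviations were most like it over the 12 libraries were Nrros, Mfap4, Rasgrp4, Phf1, Tnfaip8l2, Cactin, Bak1, Gm9780, Tpm1 and Lbp, with r from 0.992 to 0.976.

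TPM is per length, so levels can be set side by side between genes. In wild-type saline kidneys the order of mean TPM was Ier3 (62.7), Dusp1 (20.4), Ier2 (18.0), Junb (16.3), Jun (16.0), Nr4a1 (3.57), Egr1 (2.22), Fos (0.544), Fosb (0.106) and Fosl1 (0.0322). Among themselves, Dusp1, Ier2, Junb and Jun did not separate from their neighbours by their 3 values, nor did Nr4a1 from Egr1. Dusp1 lay below Ier3, and Nr4a1 below Jun, without overlap. In FAN1KO cisplatin kidneys Junb (102) and Ier3 (81.4 to 110) led and overlapped, followed by Jun (73.4), Ier2 (44.6), Dusp1 (41.3), Egr1 (29.5), Nr4a1 (6.82), Fos (5.07), Fosl1 (2.19) and Fosb (0.786). Here Jun overlapped with Ier3, and Ier2 with Dusp1, Dusp1 with Egr1 and Nr4a1 with Fos. Junb stood in the fourth place in the former group and in the first in the latter, and Fosl1 stood below Fosb in the former and above it in the latter.

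The other AP-1 proteins were read from a list of 12, all tested. In this list 4 rose in FAN1KO against wild-type cisplatin kidneys (19.6% of all genes tested), 0 fell, and the list's median difference was 0.32 against 0.24 over all genes. Under median-ratio scaling 4 rose (8.68% of all genes) and 1 fell, and the list's median was 0.04 against -0.02 over all genes. Maff, a small Maf protein without an activation domain, was at 36.2, 25.5 and 26.5 TPM in FAN1KO and 3.40, 9.11 and 7.98 TPM in wild-type cisplatin kidneys (2.03 ± 0.31, adjusted p = 0.00189). Atf3, a stress-induced factor that pairs with Jun, was at 22.0, 14.0 and 13.1 against 2.48, 4.31 and 6.29 TPM (1.73 ± 0.32, adjusted p = 0.00455). Fosl2, which encodes Fra-2, was at 22.4, 17.3 and 15.5 against 3.66, 8.86 and 8.72 TPM (1.33 ± 0.34, adjusted p = 0.0185). Jund, the Jun protein that most cells hold without a stimulus, was at 319 against 165 TPM on average (0.96 ± 0.16, adjusted p = 0.00335) and was more abundant than any member in every group. The rest of the list, Batf, Jdp2 and Mafg among them, did not pass, with differences from -0.23 to 0.45. Without FAN1KO cisplatin 1, FAN1KO cisplatin 2 or wild-type cisplatin 1 the number called was 3, since Fosl2 was lost (adjusted p = 0.0813, 0.0507 and 0.0586). In FAN1KO kidneys 5 of the 12 rose with cisplatin, a share near the 34.9% of all genes, and in wild-type kidneys 0 did.

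Of 13 other immediate early transcription factors, 8 were tested and 4 rose under cisplatin in FAN1KO against wild-type kidneys, where 19.6% of all genes rose. Klf6, a zinc finger factor of injury responses, was at 126, 81.4 and 87.1 TPM in FAN1KO and 11.9, 31.9 and 28.8 TPM in wild-type kidneys (2.06 ± 0.39, adjusted p = 0.00505). Klf4 (1.38 ± 0.37, adjusted p = 0.0238), Myc (1.38 ± 0.30, adjusted p = 0.00992) and Klf10 (1.11 ± 0.29, adjusted p = 0.0224) also rose. Klf4 and Klf10 lost their calls without FAN1KO cisplatin 1 (adjusted p = 0.105 and 0.0921) or without wild-type cisplatin 1 (adjusted p = 0.0696 and 0.0846), which left 2 calls, and Klf10 also without FAN1KO cisplatin 2 (adjusted p = 0.0802). The closest relatives of Egr1 and Nr4a1 were at low levels: Egr3, Egr4, Nr4a2 and Nr4a3 had group means of at most 0.414 TPM and were not tested. Egr2 was at 1.51 TPM in FAN1KO and 0.864 TPM in wild-type cisplatin kidneys (0.46, adjusted p = 0.209). Srf, which encodes serum response factor itself, had a difference of -0.02 (adjusted p = 0.942).

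The largest other list held 28 feedback and effector genes, of which 26 were tested. In this list 13 rose and 0 fell in FAN1KO against wild-type cisplatin kidneys (19.6% and 4.37% of all genes), and the list's median difference was 0.96. Under median-ratio scaling 12 rose (8.68% of all genes) and 0 fell, with a median of 0.67. Gadd45g lost its call there (adjusted p = 0.067 by limma). Gadd45b, a stress sensor that acts on MAP kinase kinases, was at 59.7, 43.4 and 30.8 TPM against 5.12, 11.6 and 12.7 TPM (2.12 ± 0.44, adjusted p = 0.00806). Ccn1, a secreted matrix protein, was at 154, 118 and 138 against 18.2, 48.9 and 46.5 TPM (1.94 ± 0.30, adjusted p = 0.00221), while its relative Ccn2 had means of 52.4 and 59.9 TPM. Btg2, an antiproliferative p53 target, differed by 1.85 ± 0.46 (adjusted p = 0.0171), Dusp5, a nuclear phosphatase of ERK, by 1.78 ± 0.29 (adjusted p = 0.00254), Gadd45g by 1.42 ± 0.35 (adjusted p = 0.0159) and Dusp10, a phosphatase of JNK and p38, by 1.31 ± 0.30 (adjusted p = 0.0126). Dusp6 (0.14, adjusted p = 0.673) and Dusp4 (0.34, adjusted p = 0.600), both phosphatases of ERK, did not pass. Without FAN1KO cisplatin 1 or without wild-type cisplatin 1 the number called was 6, and without FAN1KO cisplatin 2 it was 7; Btg2 and Gadd45g were lost in each case (adjusted p = 0.0724, 0.0530 and 0.0615 for Btg2 and 0.0691, 0.0621 and 0.0587 for Gadd45g). In FAN1KO kidneys 20 of the 26 rose with cisplatin (34.9% of all genes). In wild-type kidneys 1 did (0.0601% of all genes). It was Plk2, at 21.1 against 4.38 TPM (2.05, adjusted p = 0.0222), a stress kinase named here after its value was seen. Its call was lost when only the 6 wild-type libraries were fitted (adjusted p = 0.371), with a replicate block (0.0766), without wild-type saline 1, 2 or 3 (0.107, 0.0568 and 0.0879), without wild-type cisplatin 2 or 3 (0.0694 and 0.131) and without FAN1KO cisplatin 2 (0.0561).

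Upstream of these genes, 2 of 5 ligands of the EGF receptor tested rose and 1 fell in FAN1KO against wild-type cisplatin kidneys (19.6% and 4.37% of all genes). Hbegf was at 36.1, 29.0 and 28.2 against 14.3, 10.8 and 11.1 TPM (1.30 ± 0.20, adjusted p = 0.00215). Areg, which encodes amphiregulin, had 91, 63 and 65 reads in the FAN1KO cisplatin kidneys (3.63, 2.34 and 2.45 TPM) and 2, 0 and 0 reads in the wild-type ones. Like Fosl1, it could be tested only through the group where it was high (1.89 ± 0.16, adjusted p = 0.000103), and the size of this difference depends on the pseudocount. Egf, made by the thick ascending limb and distal tubule, was at 66.2, 67.8 and 104 against 211 to 443 TPM (-1.96 ± 0.36, adjusted p = 0.00454). Of 16 kinases and factors upstream, 2 rose, the receptor Egfr (0.71 ± 0.13, adjusted p = 0.00482) and the serum response factor coactivator Mrtfb (0.61 ± 0.16, adjusted p = 0.0231), and 0 fell. A larger share of all genes, 19.6%, rose. The list's median was 0.25, against 0.24 over all genes. Under median-ratio scaling 0 rose and 2 fell, Egfr was at 0.41 (adjusted p = 0.262) and Mrtfb at 0.34 (adjusted p = 0.0516). Mrtfb also lost its call without any 1 of 5 cisplatin libraries (adjusted p from 0.0521 to 0.0992), all but FAN1KO cisplatin 3. RNA levels of kinases do not show their activity, which was not measured in these libraries.

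**Figure D4:**
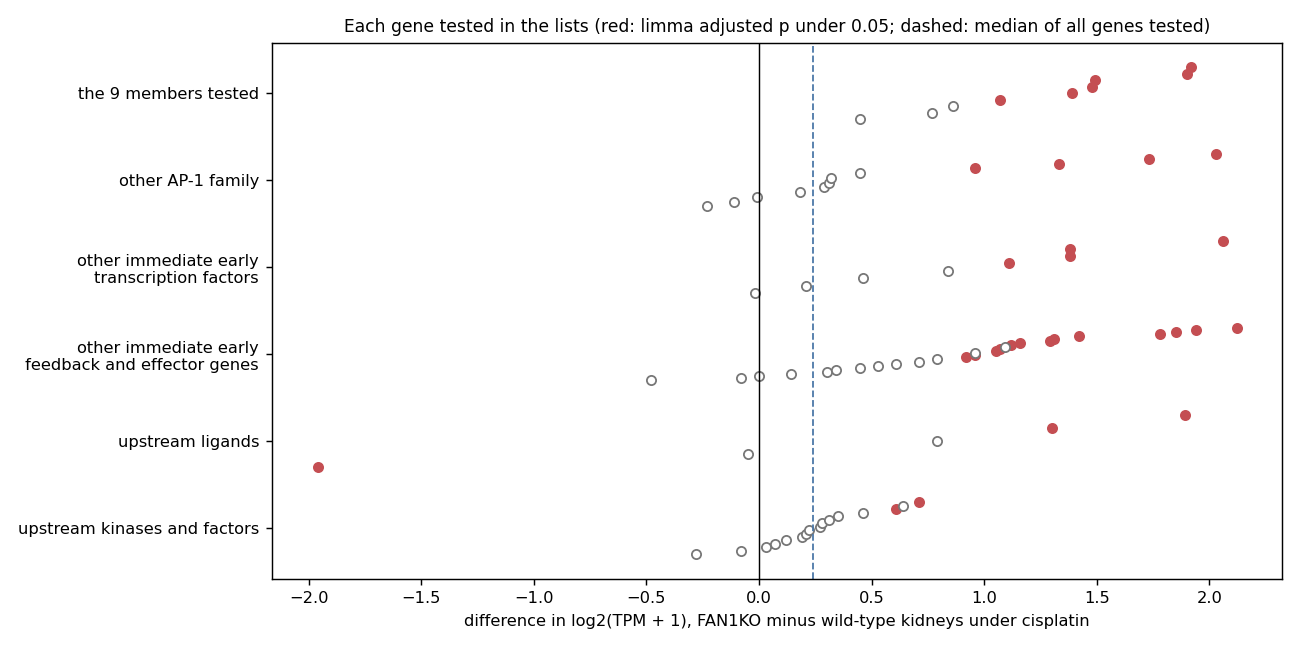
Difference in log2(TPM + 1) between FAN1KO and wild-type cisplatin kidneys for every gene tested in the 6 lists, 1 point a gene, spread vertically within a list by rank. Red points passed the limma test, and the dashed line is the median of all genes tested (0.24). The members and the feedback genes lie mostly to its right, while the upstream kinases are centred near it.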

How the data were processed

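RNA sequencing libraries of whole kidneys from 12 mice were analysed. Groups and replicate numbers are those of the labels. The table deposited by the authors gives TPM of 27179 genes by NCBI Gene number. Each library sums to 1000000, and 0 columns were left out. Per the labels, the build was mm10 and limma was among the tools used. The aligner, counter and annotation are not given in the sources used here. Names, loci and promoters came from RefSeq tables of GRCm38.p6, which gave no symbol for 1904 identifiers.

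The 14972 genes with 3 or more libraries at a TPM of 1 or higher were tested. Group means of log2(TPM + 1) were fitted over the 12 libraries by limma 3.58.1 (R 4.3.3), with moderated variances that follow the mean level. Each of the 4 comparisons and the interaction was adjusted by the Benjamini–Hochberg method over genes, with a threshold of 0.05. The comparisons share groups, so they are not independent. The labels say no more of the mice of a group than that they are separate samples, and give no sex. Y-linked RNA in a library of each group implies mice of both sexes in every group. The main fit has no term for this division, so its p-values measure a spread between samples that includes it. With the Y-linked covariate, 6035 genes were called higher and 1288 lower in FAN1KO than in wild-type cisplatin kidneys, in place of 2931 and 654.

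Whole reads were worked out from the smallest increments of the TPM. For each gene a length was searched for that made its values whole within 0.02 of a read. That the values came out whole is therefore fixed by the search and is no check of the reads. On the reads so worked out, voom with limma called 3032 genes higher and 667 lower in FAN1KO than in wild-type cisplatin kidneys. The main fit of log2(TPM + 1) gave 2931 and 654. This alternative and the fit of 8 libraries with little Y-linked RNA (Ddx3y, Eif2s3y, Kdm5d and Uty) were chosen after seeing the data. The other alternatives were median-ratio scaling, a pseudocount of 0.1, all genes above 0 without the filter, a fit of the 6 libraries compared, no mean-variance trend, a Y-linked covariate, a replicate block and each library left out in turn. The fit and the recovery of reads were tested on simulated data. The members and all gene lists were chosen with earlier results of these data known. All members were named, with up to 6 genes of each other pathway list that were called and did not overlap between the genotypes under cisplatin, by size of difference, and the 10 genes most like the members; others are named only to complete a count or as relatives of a member, after their values were seen. Python 3.11.15, numpy 2.4.6, pandas 2.3.3, scipy 1.17.1 and matplotlib 3.10.9 were also used.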

Additional observations from a re-analysis of the deposited data

Results flagged for a closer look

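The effect of cisplatin differed between the genotypes for 3 members by the interaction term of limma. It was larger in FAN1KO than in wild-type kidneys by 1.65 on the log2(TPM + 1) scale for Fos, by 1.41 for Fosl1 and by 1.43 for Ier2 (adjusted p = 0.0216, 0.0240 and 0.0136). Over the alternatives, the adjusted p lay between 0.000489 and 0.0685 for Fos, between 0.00399 and 0.0822 for Fosl1 and between 0.000624 and 0.0403 for Ier2. The interaction of Ier2 kept its side of the threshold in every alternative run, whereas those of Fos and Fosl1 did not. That of Fos was 2.58 with a pseudocount of 0.1, where it was not called. Fosl1 could be tested only through the FAN1KO cisplatin libraries, where it was high, so its call is no support, and its size depends on the pseudocount. Groups of 3 mice are too small for the test for an outlying mouse, which was not run.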

How the results depend on the processing

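Of 936 differences of single members under the alternatives, 879 kept their direction and their side of the threshold, 29 lost and 16 gained a call, and 12 changed sign, none of them called. Part of these could not change direction. The difference itself stays the same without the trend or the filter, with a replicate block or with only the 6 libraries compared. It also stays the same when the library left out belongs to neither group compared. In these fits only the adjusted p could move. The number of members called was within 1.5 times that reported, except in 2 comparisons. For cisplatin against saline in wild-type kidneys it was 0 as reported, 1 with the Y-linked covariate and 2 with the 8 libraries with little Y-linked RNA. For the interaction it was 3 as reported, 7 with the covariate, 6 with the 8 libraries and 1 with voom on the recovered reads. The cause was not tested. With single libraries left out, 4 to 6 members were called between the genotypes under cisplatin, 0 under saline, 6 to 9 for cisplatin in FAN1KO, 0 for cisplatin in wild-type kidneys and 1 to 3 for the interaction. The median residual SD of the members, 0.53, was 0.35 to 0.57 with single libraries left out, the lowest value being that without wild-type cisplatin 1.

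Signs changed for differences near 0, given beside the range with single libraries left out. Between genotypes under saline, Jun was at -0.066 without wild-type saline 3 and -0.084 without FAN1KO saline 2, Egr1 at -0.12 and -0.086 without the same libraries, and Junb at 0.16 without wild-type saline 2, 0.15 without FAN1KO saline 1 and 0.047 with the 8 libraries. Dusp1 was at -0.042 without wild-type saline 2 and -0.042 without FAN1KO saline 1. The ranges were -0.084 to 0.39 for Jun, -0.12 to 0.32 for Egr1, -0.28 to 0.16 for Junb and -0.042 to 0.28 for Dusp1. For cisplatin in wild-type kidneys, Ier3 was at 0.39 without wild-type saline 1, 0.51 without wild-type cisplatin 1 and 0.071 with the 8 libraries, with a range of -0.48 to 0.51. For cisplatin against saline in FAN1KO kidneys, median-ratio scaling moved the calls among all genes from 5229 higher and 733 lower to 2157 and 2101.

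Libraries that share a replicate number come from different mice. Over genes, their departures from their group means had correlations of -0.61 to 0.60, below 0 for the numbers 1 and 3. Each pair with these numbers set a library with Y-linked RNA against a library without it. For number 2, which held no such library, the correlations were 0.13 to 0.60. These values therefore do not show whether the numbers pair the libraries. With a replicate block in the fit, 6, 0, 7, 0 and 2 members were called in the 5 comparisons, in place of 6, 0, 8, 0 and 3. Depth limits Fosl1, at 0 to 4 reads a library under saline, and Fosb, at 5 to 21.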
